A study of Mus musculus with 8 samples.

Results

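The change between day 5 and day 32 was measured in mouse astrocytes kept in a culture that the labels call MGS. The comparison rests on 4 of the 8 libraries of the series, 2 titled MGS Day 5 and 2 titled MGS Day 32, assigned by their titles. The other 4 libraries came from astrocytes grown by a conventional method, labelled CV, at the same 2 days, and they are used here to share the estimate of spread and to set the change in MGS beside that in CV. The labels give the cells of all 8 libraries only as mouse astrocytes: strain, genotype, sex, age of the animals and brain region are not stated, no allele or drug is named, and MGS is not spelled out. In the deposited table the MGS columns carry the word Soft and the CV columns the word Hard. Nothing in the labels says that the libraries of a group came from separate cultures, so the p-values speak only to how far these libraries differ from each other, and that spread may be technical.

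Astrocytes are the glial cells that take up glutamate and potassium around synapses, supply lipid to neurons and cover blood vessels with their endfeet. Cultures made from brain tissue usually also hold some microglia, meningeal fibroblasts, ependymal cells, oligodendrocyte lineage cells and vascular cells, and each of these has its own marker genes. After injury or exposure to inflammatory signals astrocytes become reactive: they make more of the intermediate filament protein GFAP and switch on acute-phase genes such as Lcn2 and Serpina3n. In bulk RNA, fewer cells of a type and less RNA per cell cannot be told apart.

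Levels are scaled TPM, that is the deposited abundance already divided by transcript length, after the libraries were brought to a common scale by the median of gene ratios. A log2 fold change is the difference between day 32 and day 5 in the mean of log2(scaled TPM + 1), so the change of genes near or below 1 TPM is understated. A gene is called when its limma p-value, adjusted by Benjamini-Hochberg over all 14866 genes tested, is under 0.05. Of these genes 6765 were called (45.5%), 3396 higher (22.8%) and 3369 lower (22.7%) at day 32. In every called gene the libraries of day 5 and day 32 did not overlap, but this held for most genes tested. Of the 14866 genes, 6335 lay higher at day 32 without overlap and 6766 lower. Among the called genes 1834 had an estimated change of at least 2-fold (12.3% of all tested), of which 1106 were higher (7.44%) and 728 lower (4.9%). Replicates were close in MGS, with a median SD on the log2 scale of 0.0452 at day 5 and 0.0503 at day 32, against 0.13 and 0.194 in CV. The depth of the MGS libraries, as aligned bases, was 3.90 to 4.69 gigabases, against 2.15 to 2.99 in CV. Without any 1 of the MGS libraries (both replicates of both days) between 2795 and 3166 genes were called.

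The split into higher and lower genes depends on the scaling. On the TPM as deposited the median gene was higher by 0.364 on the log2 scale, and 5200 genes were called higher and 1122 lower. The size factors were 0.9261 and 0.9304 at day 5 and 1.2505 and 1.2565 at day 32, so that scaling lowers every log2 fold change. The change also followed transcript length. In MGS the median log2 fold change went from -0.402 in the eighth of genes with the shortest transcripts to 0.553 in the eighth with the longest, while in CV it went from 0.53 to -0.534. By GC content it went from 0.257 in the eighth with the least GC to -0.334 in the eighth with the most. The part of this trend in the results on short transcripts (ribosomal and respiratory chain proteins) and long ones was not tested beyond a correction for length and GC content, whose values are given where they turn a direction.

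**Figure D1:**
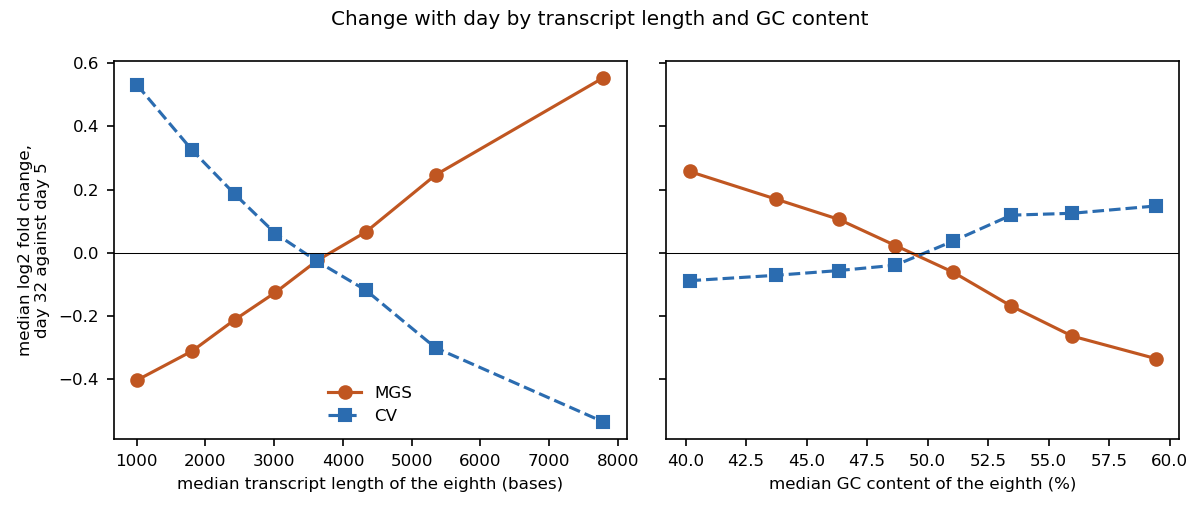
Median log2 fold change from day 5 to day 32 (vertical axis) in eighths of the tested genes, by median transcript length in bases (left) and by median GC content in percent (right), for MGS (circles) and CV (squares). In MGS the median runs from -0.402 in the shortest to 0.553 in the longest eighth, and in CV from 0.53 to -0.534.

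Among the 15 largest falls were those of Lcn2, Cldn5, Saa3 and Ttr, the second and last of which are described with the markers of other cell types. Lcn2 (chr2:32384637-32387739, minus strand, in the coordinates of the files), the iron-siderophore binding protein lipocalin 2, measured 707 and 691 scaled TPM at day 5 and 3.32 and 2.80 at day 32 (log2 fold change -7.43, SE 0.23, adjusted p = 1.67e-05). The day 32 libraries held under a hundredth of the day 5 level, and the groups were far apart. Saa3, an acute-phase apolipoprotein, measured 51.7 and 55.2 scaled TPM at day 5 and 1.54 and 1.93 at day 32, a log2 fold change of -4.32. Reg3g, a secreted C-type lectin of the acute-phase response, measured 12.5 and 12.3 scaled TPM at day 5 and 0 and 0.213 at day 32. These genes were close to 0 in both day 32 libraries and well above it in both day 5 libraries. Further falls among the largest were those of Chi3l1, a secreted chitinase-like protein of reactive glia, with 124 and 125 against 12.3 and 12.3 scaled TPM, of Slpi, a secreted protease inhibitor, with 9.45 and 10.4 against 0.249 and 0.269, and of Wfdc2, a related secreted protein, with 57.6 and 64.1 against 6.69 and 7.77. The transglutaminase gene Tgm1 measured 287 and 261 scaled TPM at day 5 and 25.5 and 27.2 at day 32 (log2 fold change -3.33, SE 0.11, adjusted p = 1.67e-05). Marco and Cd5l, a scavenger receptor and a secreted protein of tissue macrophages, measured 12.3 and 12.8 against 0.671 and 0.377 and 20.3 and 23.5 against 0.707 and 0.730 scaled TPM at day 5 against day 32. Fabp4, a fatty acid binding protein of endothelial cells, fat cells and macrophages, measured 16.2 and 17.1 against 0.373 and 0.644, and the secreted ribonuclease Rnase1 40.5 and 38.2 against 2.75 and 2.47.

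Among the 15 largest rises were those of Myoc, Inpp5j, Tnr and C1ql3. Myoc (chr1:162639150-162649694, plus strand), which encodes the secreted glycoprotein myocilin, measured 9.67 and 9.63 scaled TPM at day 5 and 230 and 232 at day 32 (log2 fold change 4.44, SE 0.14, adjusted p = 1.67e-05). Both day 32 libraries were more than 20 times above both day 5 libraries. Inpp5j, an inositol polyphosphate 5-phosphatase, went from 1.10 and 1.19 to 40.4 and 43.6 scaled TPM (log2 fold change 4.32, SE 0.12, adjusted p = 1.67e-05). Tnr (chr1:159523769-159924922, plus strand), the matrix glycoprotein tenascin-R, went from 2.98 and 2.52 to 55.9 and 63.4 scaled TPM (log2 fold change 4.02, SE 0.16, adjusted p = 3.85e-05). C1ql3, a secreted C1q-like synaptic protein, went from 4.94 and 4.20 to 75.3 and 72.6 scaled TPM. Pcp4, a calmodulin-binding peptide, went from 2.82 and 2.90 to 41.7 and 41.3 scaled TPM. For each of these genes the 2 libraries of a day were close to each other. The days did not overlap, which was a condition for naming the largest rises and falls. Kcnj6, which encodes an inward rectifier potassium channel subunit, was listed at 0.126 and 0 against 8.74 and 8.25 scaled TPM and Acan, the core protein of the proteoglycan aggrecan, at 0.152 and 0.168 against 8.63 and 9.35. Lrp2, the endocytic receptor megalin, went from 1.54 and 1.61 to 18.3 and 18.7 scaled TPM. Wisp2, a secreted CCN family protein, went from 12.5 and 11.4 to 94.7 and 97.9 scaled TPM. Kctd12, an auxiliary subunit of GABA-B receptors, was also among the 15 largest rises, but its day 5 libraries disagreed: it was listed at 0 in one and 12.2 in the other, against 34.7 and 55.1 at day 32, and it lost its call without MGS Day 32 replicate 1 or MGS Day 32 replicate 2 (adjusted p up to 0.125).

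**Figure D2:**
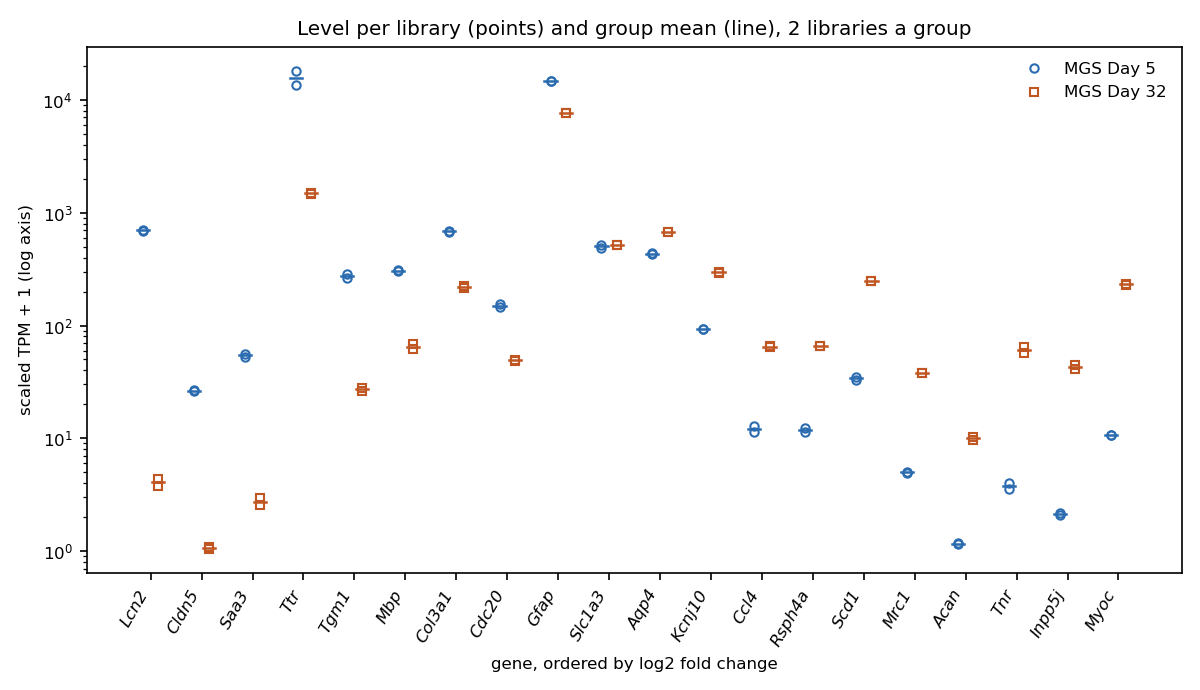
Level of 20 genes in each MGS library (scaled TPM + 1, log axis), ordered by log2 fold change from the largest fall (left) to the largest rise (right). Circles are the 2 day 5 libraries, squares the 2 day 32 libraries and short lines their means. Lcn2 goes from 707 and 691 to 3.32 and 2.80, Myoc from 9.67 and 9.63 to 230 and 232, and Slc1a3 differs little between the days.

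The single largest rise by log2 fold change, that of the ribosomal protein gene Rps27 (from 19.7 and 18.2 to 1039 and 897 scaled TPM, log2 fold change 5.60), has a mirror image at the same place. The annotation of the files holds a second gene, Gm9846, on the same strand of chromosome 3 from 90212667 to 90213647, where Rps27 spans 90212667 to 90213648. Gm9846, named here after its values were seen, went from 2179 and 2085 to 10.6 and 10.5 scaled TPM. The sum of both rows was 2198 and 2103 at day 5 and 1050 and 907.2 at day 32, a log2 fold change of -1.14, close to the median of the other ribosomal protein genes. In CV the sum changed by 1.2. The assignment between these rows differed between libraries, and the direction of Rps27 on its own is uncertain. The call of Rps27 was lost without any 1 of the 4 MGS libraries (adjusted p up to 0.152). Of 59 pairs of tested genes that share at least 90% of their span on 1 strand, 2 pairs were called in opposite directions and this was the pair with a gene named here. Antisense and overlapping genes are uncertain in the same way, since the use of strand in counting is not given in the sources used here.

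Pan-reactive astrocyte genes fell together, and the A1 and A2 groups held genes called both ways. Of the 13 pan-reactive genes tested 8 were called lower and 0 higher, with a median log2 fold change of -0.89 beside -0.021 over all genes. 5 of the 13 pan-reactive genes were called without MGS Day 5 replicate 1 and 5 were called without MGS Day 32 replicate 1. Serpina3n, a secreted serine protease inhibitor, measured 1189 and 1176 scaled TPM at day 5 and 343 and 332 at day 32 (log2 fold change -1.80, SE 0.09, adjusted p = 5.99e-05). Steap4, a metalloreductase of iron and copper uptake, measured 57.7 and 58.4 scaled TPM at day 5 and 5.77 and 6.44 at day 32 (log2 fold change -3.06, SE 0.11, adjusted p = 2.50e-05). Timp1, an inhibitor of matrix metalloproteases, measured 121 and 114 scaled TPM at day 5 and 21.2 and 18.1 at day 32 (log2 fold change -2.52, SE 0.23, adjusted p = 3.30e-04). For these 3 genes every day 5 library was above every day 32 library by a wide margin. Gfap itself, the intermediate filament protein of astrocytes, fell less: it measured 14817 and 14772 scaled TPM at day 5 and 7654 and 7644 at day 32 (log2 fold change -0.95, SE 0.22, adjusted p = 0.0123), and its call was lost without any 1 of the 4 MGS libraries (adjusted p up to 0.089). Of the genes known as A1 reactive 3 rose and 6 fell of 12: Amigo2, an adhesion protein, measured 4.84 and 5.76 against 3.02 and 2.91 scaled TPM, and Iigp1, an interferon-induced GTPase, went the other way with 6.17 and 7.90 against 14.9 and 13.5, a call lost without MGS Day 5 replicate 1 or MGS Day 32 replicate 1 or MGS Day 32 replicate 2 (adjusted p up to 0.0894). 2 to 5 of the 12 A1 reactive genes were called when any 1 of the 4 MGS libraries was left out. Of the 12 A1 reactive genes, 3 were called higher and 1 lower without scaling (median 0.14). Of the A2 reactive genes 2 rose and 5 fell of 11, with Ptx3, a secreted pentraxin, at 71.1 and 69.9 against 17.7 and 18.4 scaled TPM and Cd14, a co-receptor for bacterial lipopolysaccharide, at 34.5 and 32.2 against 19.5 and 17.1. 2 to 3 of the 11 A2 reactive genes were called when any 1 of the 4 MGS libraries was left out. Of the 11 A2 reactive genes, 2 were called higher and 4 lower without scaling (median 0.10). Cd14 lost its call without MGS Day 5 replicate 1 or MGS Day 5 replicate 2 or MGS Day 32 replicate 2 (adjusted p up to 0.0745).

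Promoters of the pan-reactive genes were read from RefSeq (GRCm38.p6) as windows from 250 bases before to 50 after each transcription start. The letters GGGA and CC with any 4 bases between them (a kappaB-type site, either strand) were found in 7 of the 14 windows of the list against 20.7% of 32851 windows of the genome, and TTCNNNGAA (a STAT-type site) in 2 of the 14 windows (14.3%) against 8.3%. Steap4, whose fall is given above, holds both and is shown for that reason, with the matches to either motif in capitals (chr5:7960222-7960521, plus strand). These matches are letters in a window and say nothing of binding.
Steap4: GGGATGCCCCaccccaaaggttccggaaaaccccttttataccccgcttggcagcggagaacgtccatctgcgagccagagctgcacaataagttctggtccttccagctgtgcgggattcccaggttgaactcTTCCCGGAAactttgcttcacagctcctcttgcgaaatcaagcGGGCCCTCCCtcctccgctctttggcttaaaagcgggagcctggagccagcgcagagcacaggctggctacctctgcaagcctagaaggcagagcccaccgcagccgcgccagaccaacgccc

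Complement genes did not move as a block. Of 21 tested 3 rose and 7 fell, with a median of -0.001. 47.6% of the 21 complement genes were called, against 45.5% of all genes. Of the 21 complement genes, 8 were called higher and 2 lower without scaling (median 0.43), 5 higher and 6 lower with quantile normalization (median 0.04) and 5 higher and 9 lower after correction for length and GC content (median 0.07). Cfb, complement factor B of the alternative pathway, measured 11.7 and 12.97 scaled TPM at day 5 and 2.21 and 2.44 at day 32 (log2 fold change -2.004, SE 0.12, adjusted p = 1.03e-04). Cfi, a protease that inactivates C3b, measured 2.63 and 2.71 against 0.710 and 0.646 scaled TPM and C1ra, a protease of the first component, 45.9 and 43.5 against 25.2 and 23.8. All 3 were lower in both day 32 libraries. C4a rose (10.8 and 11.8 against 18.9 and 20.9 scaled TPM), though its near-identical copy C4b makes its share of reads uncertain. C3, the central component, measured 271 and 274 scaled TPM at day 5 and 205 and 212 at day 32 (log2 fold change -0.38, SE 0.12, adjusted p = 0.0349), a fall that lost its call without any 1 of the 4 MGS libraries (adjusted p up to 0.153) and that was 0.05 on the log2 scale without scaling.

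Interferon-stimulated genes rose while class I antigen presentation genes fell. Of 35 interferon-stimulated genes tested 18 were called higher and 1 lower, with a median of 0.47. The share called was 54.3%, against 45.5% of all genes. 12 of the 35 interferon-stimulated genes were called without MGS Day 5 replicate 1, 12 were called without MGS Day 32 replicate 1 and 12 were called without MGS Day 32 replicate 2. Ifit3, an RNA-binding antiviral protein with tetratricopeptide repeats, went from 24.1 and 29.98 to 105 and 96.7 scaled TPM (log2 fold change 1.87, SE 0.15, adjusted p = 2.41e-04). Its relative Ifit1 went from 11.8 and 16.1 to 45.4 and 42.2 scaled TPM (log2 fold change 1.60, SE 0.15, adjusted p = 3.61e-04). Both day 32 libraries of each gene were more than 2 times above both of day 5. Trim30a, a ubiquitin ligase family member, went from 3.53 and 4.58 to 15.4 and 15.1 scaled TPM. The 1 gene called lower was Zbp1, a sensor of Z-form nucleic acid, which went from 28.7 and 31.3 to 9.17 and 9.71 scaled TPM (log2 fold change -1.57, SE 0.14, adjusted p = 3.59e-04). The interferon-stimulated response element, searched as GAAA and GAAA with any 2 bases between them on either strand, was found in 17 of the 29 windows (58.6%) of the genes of this list that matched RefSeq promoters, against 3.4% of all windows. The windows of Ifit3 (chr19:34583279-34583578, plus strand) and Ifit1 (chr19:34640639-34640938, plus strand) are shown because each holds this motif more than once, in capitals, in the RefSeq build GRCm38.p6.
Ifit3: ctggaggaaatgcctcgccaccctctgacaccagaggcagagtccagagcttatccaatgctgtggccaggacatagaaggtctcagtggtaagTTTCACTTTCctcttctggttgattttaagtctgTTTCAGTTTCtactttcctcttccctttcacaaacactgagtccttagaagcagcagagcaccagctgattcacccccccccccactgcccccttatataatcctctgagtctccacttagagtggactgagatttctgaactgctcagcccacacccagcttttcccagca
Ifit1: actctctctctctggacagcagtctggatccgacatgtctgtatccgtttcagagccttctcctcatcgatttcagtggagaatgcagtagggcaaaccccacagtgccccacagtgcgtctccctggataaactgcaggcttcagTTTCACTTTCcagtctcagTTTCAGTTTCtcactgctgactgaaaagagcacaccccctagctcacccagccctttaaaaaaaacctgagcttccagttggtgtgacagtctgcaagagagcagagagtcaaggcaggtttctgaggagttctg

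Among 33 chemokines and cytokines tested 10 rose and 15 fell, with a median of -0.32. Of the 33 chemokines and cytokines, 11 were called higher and 8 lower without scaling (median 0.08). The 4 members with the largest changes were all among those that rose. Tnf, the cytokine tumour necrosis factor, went from 4.29 and 5.11 to 32.7 and 32.5 scaled TPM (log2 fold change 2.56, SE 0.13, adjusted p = 5.99e-05). Cxcl2, a chemokine for neutrophils, went from 4.23 and 5.43 to 46.7 and 46.5 scaled TPM (log2 fold change 3.04, SE 0.14, adjusted p = 5.09e-05). Ccl4 and Ccl12, chemokines for monocytes, went from 10.4 and 11.9 to 64.3 and 63.96 scaled TPM and from 2.56 and 3.41 to 21.6 and 21.98 scaled TPM. Each of these 4 was low in both day 5 libraries and several times higher in both day 32 libraries. Cxcl1, a chemokine for neutrophils, and Cxcl12, which guides migrating cells, are named after their values were seen, as members that fell. Cxcl1 measured 32.2 and 26.5 scaled TPM at day 5 and 6.83 and 8.10 at day 32 (log2 fold change -1.84, SE 0.17, adjusted p = 3.47e-04), and Cxcl12 186 and 181 scaled TPM at day 5 and 102 and 102 at day 32. Class I presentation genes fell: 13 of 20 fell and 0 rose, with a median of -0.59. 2 to 3 of the 20 class I genes were called when any 1 of the 4 MGS libraries was left out. Of the 20 class I genes, 1 was called higher and 4 lower without scaling. H2-Q7, a class I heavy chain of the Qa region with close copies, measured 11.7 and 12.7 against 5.35 and 5.71 scaled TPM. H2-D1, a classical heavy chain, measured 419 and 411 against 224 and 230 and lost its call without any 1 of the 4 MGS libraries (adjusted p up to 0.0761). Psmb8 and Psmb10, subunits of the immunoproteasome, measured 57.9 and 52.97 against 32.2 and 30.3 and 90.1 and 86.3 against 37.3 and 41.8. Their calls were lost without any 1 of the 4 MGS libraries or without CV Day 5 replicate 1 or CV Day 5 replicate 2 (adjusted p up to 0.173) for Psmb8 and without any 1 of the 4 MGS libraries (adjusted p up to 0.124) for Psmb10. Of 7 class II genes 3 rose: Cd74, the invariant chain, measured 19.2 and 18.1 against 33.2 and 33.03 scaled TPM, with its call lost without any 1 of the 4 MGS libraries or without CV Day 5 replicate 1 or CV Day 5 replicate 2 (adjusted p up to 0.174), and H2-Aa, a class II alpha chain, 8.30 and 8.27 against 14.6 and 15.9, with its call lost without any 1 of the 4 MGS libraries (adjusted p up to 0.0936). 42.9% of the 7 class II genes were called, against 45.5% of all genes. 0 to 1 of the 7 class II genes were called when any 1 of the 4 MGS libraries was left out.

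Macrophage and microglia markers moved beside these genes. Of 9 genes of border-associated macrophages tested 6 rose and 1 fell, with a median of 1.92. Of the 9 border-associated macrophage genes, 8 were called higher and 0 lower without scaling and 8 higher and 0 lower after correction for length and GC content. Mrc1, the mannose receptor CD206, went from 4.02 and 3.96 to 36.7 and 36.8 scaled TPM (log2 fold change 2.92, SE 0.19, adjusted p = 1.26e-04). Stab1, a scavenger receptor, went from 15.8 and 15.4 to 65.7 and 72.3 scaled TPM. Siglec1, a sialic acid receptor, went from 1.03 and 1.06 to 9.09 and 9.99 scaled TPM. Lyve1, a hyaluronan receptor, went from 0.338 and 0.304 to 4.46 and 4.43 scaled TPM. In all 4 the day 32 libraries were over 4 times the day 5 libraries. The summed level of this list was 68.95 to 69.96 scaled TPM at day 5 and 192 to 198 at day 32. Of 24 microglia markers 10 rose and 4 fell. 9 of the 24 microglia markers were called when any 1 of the 4 MGS libraries was left out. Of the 24 microglia markers, 14 were called higher and 1 lower without scaling and 15 higher and 3 lower after correction for length and GC content. Csf1r, the receptor for the survival factor of these cells, went from 8.09 and 8.09 to 37.6 and 39.5 scaled TPM (log2 fold change 2.12, SE 0.11, adjusted p = 6.18e-05). Cx3cr1, the fractalkine receptor, went from 3.92 and 3.50 to 14.9 and 14.3 scaled TPM. Fcrls went from 22.3 and 23.01 to 58.99 and 56.6 scaled TPM. Tmem119, a microglial membrane protein, fell from 53.9 and 49.4 to 13.7 and 14.5 scaled TPM (log2 fold change -1.80, SE 0.16, adjusted p = 3.07e-04). The most abundant marker, Lyz2 (lysozyme), measured 663 and 683 scaled TPM at day 5 and 558 and 539 at day 32 and was not called (adjusted p = 0.0869). The summed level of the microglia list was 1565 to 1587 scaled TPM at day 5 and 1479 to 1507 at day 32. Of the 25 genes listed 1, Siglech, was at 0 in all MGS libraries and was not tested. Genes that microglia switch on in disease fell: 11 of 16 were called lower and 0 higher. 6 of the 16 disease-associated microglia genes were called when any 1 of the 4 MGS libraries was left out. Of the 16 disease-associated microglia genes, 2 were called higher and 9 lower without scaling and 1 higher and 8 lower with quantile normalization. Cd36, a fatty acid and lipoprotein receptor, measured 24.96 and 27.7 scaled TPM at day 5 and 2.96 and 2.97 at day 32 (log2 fold change -2.78, SE 0.20, adjusted p = 1.58e-04). Astrocytes also express several genes of that list, Apoe among them. The part of macrophages and microglia in the rises of Tnf, the named chemokines and the interferon-stimulated genes was not tested.

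Genes of cell division fell almost throughout on scaled TPM. Of 39 mitosis genes tested 34 were called lower and 0 higher, with a median log2 fold change of -1.11. On TPM without scaling 23 of the 39 were called lower and 0 higher (median -0.71). Cdc20, the activator of the anaphase-promoting complex, measured 153 and 146 scaled TPM at day 5 and 47.9 and 48.6 at day 32 (log2 fold change -1.61, SE 0.16, adjusted p = 4.74e-04). Ube2c, a ubiquitin-conjugating enzyme of that complex, measured 147 and 137 scaled TPM at day 5 and 45.1 and 42.6 at day 32 (log2 fold change -1.67, SE 0.14, adjusted p = 2.39e-04). Birc5, the passenger protein survivin, measured 79.5 and 80.8 against 21.8 and 18.8 scaled TPM and Cenpa, the centromere histone, 80.1 and 77.1 against 23.1 and 24.03. Each was about 3 to 4 times lower in the day 32 libraries. Of 35 genes of DNA replication 32 fell and 0 rose, with a median of -0.90. On TPM without scaling 19 of the 35 were called lower and 1 higher (median -0.5). 21 of the 35 DNA replication genes were called without MGS Day 5 replicate 1. Tk1, thymidine kinase, measured 80.9 and 70.8 scaled TPM at day 5 and 18.9 and 20.4 at day 32. Ccne1, cyclin E1, measured 28.3 and 28.1 scaled TPM at day 5 and 9.45 and 9.19 at day 32. Mki67, the proliferation antigen, fell less: it measured 26.2 and 26.2 scaled TPM at day 5 and 18.8 and 18.6 at day 32 (log2 fold change -0.47, SE 0.15, adjusted p = 0.04), its call was lost without any 1 of the 4 MGS libraries (adjusted p up to 0.158), and without scaling its adjusted p was 0.871.

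In the RefSeq promoters (GRCm38.p6) of the mitosis genes, the letters TTTGAA (the cell cycle genes homology region, either strand) were found in 25 of the 34 windows (73.5%) against 17.9% of all windows, and CCAAT (the CCAAT box, either strand) in 25 of the 34 windows (73.5%) against 37.4%. These windows include Dazl, which is not on the list and was reached through a RefSeq synonym. It is among the CCAAT matches and not among the TTTGAA matches. The windows of Cdc20 (chr4:118437294-118437593, minus strand) and Ube2c (chr2:164769679-164769978, plus strand), the members described first above, are shown with matches to either motif in capitals.
Cdc20: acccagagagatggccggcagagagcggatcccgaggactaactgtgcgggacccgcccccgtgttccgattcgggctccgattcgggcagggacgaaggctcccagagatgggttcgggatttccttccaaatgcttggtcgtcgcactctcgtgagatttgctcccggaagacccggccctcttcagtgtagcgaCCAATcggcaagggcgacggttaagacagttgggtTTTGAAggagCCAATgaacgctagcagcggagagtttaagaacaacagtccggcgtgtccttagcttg
Ube2c: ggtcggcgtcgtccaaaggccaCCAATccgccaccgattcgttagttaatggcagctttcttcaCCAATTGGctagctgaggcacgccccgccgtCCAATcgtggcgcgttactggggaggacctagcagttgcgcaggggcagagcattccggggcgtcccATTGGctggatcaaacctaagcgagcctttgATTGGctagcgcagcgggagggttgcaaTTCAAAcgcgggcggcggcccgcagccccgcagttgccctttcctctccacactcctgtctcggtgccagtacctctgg

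Inhibitors of the cell cycle were mixed, with 4 of 17 higher and 8 lower. 6 to 7 of the 17 cell cycle inhibitor genes were called when any 1 of the 4 MGS libraries was left out. Of the 17 cell cycle inhibitor genes, 5 were called higher and 4 lower without scaling (median 0.13) and 6 higher and 7 lower with quantile normalization. Cdkn1c, the imprinted inhibitor p57, measured 302 and 304 scaled TPM at day 5 and 66.4 and 77.8 at day 32 (log2 fold change -2.06, SE 0.15, adjusted p = 1.73e-04). Cdkn2b, the inhibitor p15, went from 12.96 and 13.5 to 35.9 and 36.4 scaled TPM (log2 fold change 1.38, SE 0.16, adjusted p = 7.76e-04). Cdkn2a, whose locus encodes p16 and p19Arf, went from 8.49 and 6.46 to 21.4 and 28.97 scaled TPM, with its call lost without MGS Day 5 replicate 2 or MGS Day 32 replicate 2 (adjusted p up to 0.0656). Targets of p53 were mixed as well (8 higher and 4 lower of 26). 46.2% of the 26 p53 target genes were called, against 45.5% of all genes. 5 to 7 of the 26 p53 target genes were called when any 1 of the 4 MGS libraries was left out. Of the 26 p53 target genes, 14 were called higher and 2 lower without scaling and 10 higher and 3 lower with quantile normalization. Trp53inp1, a stress-induced nuclear protein, went from 12.9 and 13.8 to 35.98 and 36.2 scaled TPM. Eda2r, a receptor of the tumour necrosis factor family, went from 5.91 and 4.12 to 15.7 and 14 scaled TPM. Gadd45a, a growth arrest protein, went from 111 and 104 to 48.5 and 50.3 scaled TPM.

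**Figure D3:**
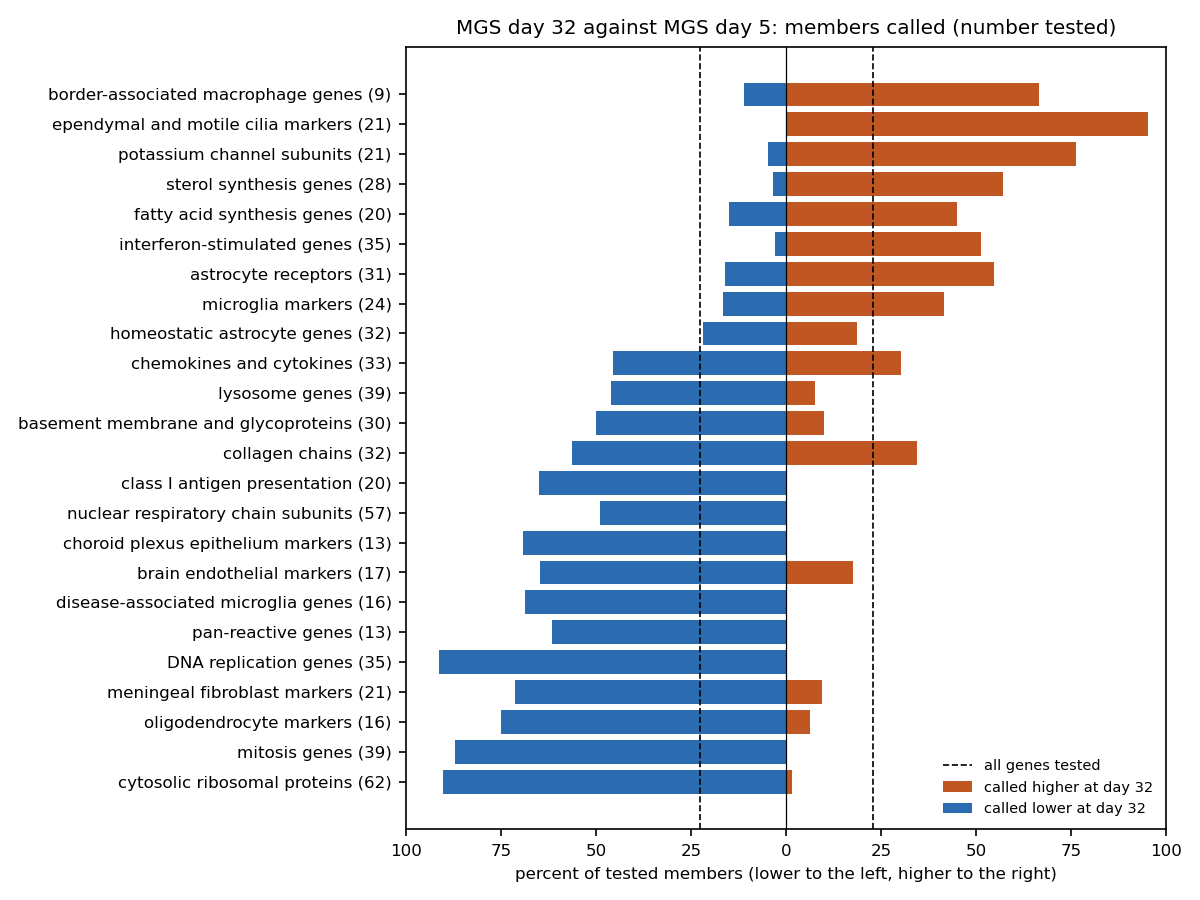
Percent of the tested members of selected gene lists that were called higher (bars to the right) or lower (bars to the left) at day 32 than at day 5 in MGS, ordered by median log2 fold change, with the number tested in brackets. Dashed lines mark the 22.8% and 22.7% of all genes tested that were called higher and lower.

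Genes that define mature astrocytes did not share a direction. Of 32 homeostatic genes 6 rose, 7 fell and 19 were not called, with a median of 0.03. 40.6% of the 32 homeostatic genes of astrocytes were called, against 45.5% of all genes. 4 to 6 of the 32 homeostatic genes of astrocytes were called when any 1 of the 4 MGS libraries was left out. Of the 32 homeostatic genes of astrocytes, 13 were called higher and 3 lower without scaling, 15 higher and 2 lower with quantile normalization and 8 higher and 10 lower after correction for length and GC content (median -0.02). Kcnj10, the inward rectifier Kir4.1 that clears potassium, went from 91.2 and 92.9 to 297 and 293 scaled TPM (log2 fold change 1.67, SE 0.12, adjusted p = 1.63e-04), and its partner subunit Kcnj16 from 7.73 and 6.98 to 17.3 and 17.03 scaled TPM. Aldh1l1, the folate enzyme widely used as an astrocyte marker, measured 277 and 270 scaled TPM at day 5 and 128 and 131 at day 32 (log2 fold change -1.08, SE 0.14, adjusted p = 0.00141). Slc7a10, a transporter of small neutral amino acids, measured 7.89 and 9.09 against 1.57 and 2.11 scaled TPM. Apoe, the main lipid carrier of astrocytes and the most abundant gene of this list, measured 31080 and 31116 scaled TPM at day 5 and 11338 and 11523 at day 32 (log2 fold change -1.44, SE 0.43, adjusted p = 0.0316), with its call lost without any 1 of the 4 MGS libraries or without CV Day 5 replicate 1 or CV Day 5 replicate 2 (adjusted p up to 0.174). Slc1a3, the glutamate transporter GLAST, measured 487 and 518 scaled TPM at day 5 and 512 and 519 at day 32 (adjusted p = 0.881). S100b, a calcium-binding protein, measured 97.7 and 89.9 scaled TPM at day 5 and 104 and 96.4 at day 32 (adjusted p = 0.541). Neither was called, and the libraries of the days lay close together. Aqp4, the water channel of endfeet, measured 425 and 438 scaled TPM at day 5 and 674 and 669 at day 32. It missed the threshold (log2 fold change 0.64, SE 0.25, adjusted p = 0.0759), and the days did not overlap, as in most genes tested. Defining markers of astrocytes were thus present in all 4 libraries.

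Of 13 genes of glutamate and GABA handling 4 rose and 1 fell. 38.5% of the 13 glutamate and GABA genes were called, against 45.5% of all genes. 1 to 2 of the 13 glutamate and GABA genes were called when any 1 of the 4 MGS libraries was left out. Of the 13 glutamate and GABA genes, 4 were called higher and 2 lower after correction for length and GC content. Slc6a11, the GABA transporter GAT3, measured 42.7 and 46.4 scaled TPM at day 5 and 11.1 and 11.5 at day 32 (log2 fold change -1.89, SE 0.10, adjusted p = 7.81e-05). Slc1a2, the glutamate transporter GLT-1, measured 45.1 and 47.2 scaled TPM at day 5 and 64.7 and 64.1 at day 32 (log2 fold change 0.47, SE 0.13, adjusted p = 0.0248); its call was lost without any 1 of the 4 MGS libraries (adjusted p up to 0.14), and its direction turned after correction for length and GC content (-0.26). Maob, which degrades monoamines, went from 9.53 and 10.4 to 16.3 and 16.8 scaled TPM, with its call lost without MGS Day 5 replicate 1 or MGS Day 32 replicate 2 (adjusted p up to 0.0535). Genes of water and ion transport at endfeet were split, 2 up and 5 down of 17. 41.2% of the 17 endfoot transport genes were called, against 45.5% of all genes. 2 to 4 of the 17 endfoot transport genes were called when any 1 of the 4 MGS libraries was left out, and 11 were called without CV Day 32 replicate 1 and 12 were called without CV Day 32 replicate 2. Of the 17 endfoot transport genes, 4 were called higher and 1 lower without scaling (median 0.15) and 5 higher and 3 lower with quantile normalization (median 0.11). Trpv4, a calcium channel opened by swelling, measured 12.3 and 13.2 against 4.99 and 5.01 scaled TPM (log2 fold change -1.195, SE 0.14, adjusted p = 8.13e-04) and Car2, a carbonic anhydrase, 50.97 and 50.7 against 32.3 and 32.8. Of 11 connexins and pannexins 4 were called lower and 0 higher. 36.4% of the 11 connexins and pannexins were called, against 45.5% of all genes. Of the 11 connexins and pannexins, 1 was called higher and 2 lower without scaling (median 0.08) and 1 higher and 4 lower with quantile normalization. Gjb2, connexin 26, measured 303 and 314 scaled TPM at day 5 and 195 and 196 at day 32 (log2 fold change -0.65, SE 0.09, adjusted p = 0.00195). Panx1, pannexin 1, measured 21.6 and 22.1 scaled TPM at day 5 and 10.9 and 10.3 at day 32. The main astrocyte connexins were not called: Gja1 (connexin 43) measured 1441 and 1571 against 1214 and 1145 scaled TPM (adjusted p = 0.0723) and Gjb6 (connexin 30) 108 and 120 against 106 and 105 (adjusted p = 0.712). With quantile normalization Gja1 was called higher (log2 fold change 0.54, adjusted p = 0.0231).

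Potassium channel subunits rose. Of 21 tested 16 were called higher and 1 lower, with a median of 0.73 that was 1.03 without scaling, 0.54 with quantile normalization and 0.41 after correction for length and GC content. Kcnn3, a small-conductance calcium-activated channel, went from 1.62 and 1.84 to 14.02 and 14.4 scaled TPM (log2 fold change 2.48, SE 0.16, adjusted p = 1.24e-04). Kcnq3, a subunit of the M-type channel, went from 0.644 and 0.605 to 4.61 and 4.86 scaled TPM, and Kcnd3, the A-type channel Kv4.3, from 9.75 and 9.69 to 27.9 and 28.3 scaled TPM. Of 31 receptors of astrocytes for transmitters, nucleotides, peptides, proteases and lipids 17 rose and 5 fell, with a median of 0.46. 11 to 13 of the 31 astrocyte receptors were called when any 1 of the 4 MGS libraries was left out. Of the 31 astrocyte receptors, 16 were called higher and 8 lower after correction for length and GC content. Genes of AMPA receptor subunits were among those that rose. Gria1 went from 10.96 and 11.5 to 47.7 and 47.2 scaled TPM (log2 fold change 1.99, SE 0.13, adjusted p = 1.18e-04). Gria2 went from 2.83 and 2.91 to 12.2 and 12.3 scaled TPM. Gria4 went from 4.03 and 4.17 to 15.5 and 13.9 scaled TPM. P2ry14, a receptor for UDP-sugars, measured 2.48 and 2.52 against 0.435 and 0.304 scaled TPM and was the largest fall of that list. Transcripts of the potassium channel list had a median of 5444 bases, near the eighth of all genes (median 5347 bases) that changed by 0.246. Those of the receptor list had a median of 4107 bases, between eighths that changed by -0.024 and 0.066, and the median of that list was 0.38 after correction for length and GC content.

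Transcription factors of glial identity were called in 7 cases up and 3 down of 26. 38.5% of the 26 glial identity transcription factors were called, against 45.5% of all genes. 6 of the 26 glial identity transcription factors were called when any 1 of the 4 MGS libraries was left out. Of the 26 glial identity transcription factors, 11 were called higher and 2 lower without scaling. Zbtb20, a zinc finger factor of astrocyte formation, went from 4.17 and 5.50 to 29.4 and 36.6 scaled TPM (log2 fold change 2.54, SE 0.17, adjusted p = 1.27e-04). Id4, an inhibitor of basic helix-loop-helix factors, went from 232 and 227 to 552 and 577 scaled TPM (log2 fold change 1.298, SE 0.11, adjusted p = 2.45e-04). Hes5, a Notch-induced repressor, measured 15.1 and 13.8 scaled TPM at day 5 and 3.05 and 4.21 at day 32 (log2 fold change -1.75, SE 0.17, adjusted p = 4.37e-04). Of 24 genes of neural stem cells and immature glia 8 rose and 10 fell: Nes, the filament protein nestin, went from 119 and 114 to 214 and 212 scaled TPM. 10 of the 24 stem and immature glia genes were called without MGS Day 5 replicate 1, 11 were called without MGS Day 32 replicate 1 and 11 were called without MGS Day 32 replicate 2. Of the 24 stem and immature glia genes, 9 were called higher and 4 lower without scaling and 8 higher and 11 lower after correction for length and GC content (median -0.05). Cdk6, a cyclin-dependent kinase, went from 1.32 and 1.63 to 5.07 and 5.31 scaled TPM, and the fetal RNA-binding proteins Igf2bp2 and Igf2bp3 measured 22.2 and 23.7 against 9.80 and 9.54 and 6.63 and 6.36 against 2.81 and 2.76 scaled TPM. Of 13 intermediate filament and lamin genes 8 were called lower and 2 higher, nestin being among the latter. Of the 13 intermediate filament and lamin genes, 3 were called higher and 6 lower without scaling. The simple-epithelium keratins Krt8 and Krt18 measured 14.4 and 15.4 against 3.56 and 4.05 and 26.6 and 29.2 against 6.54 and 6.69 scaled TPM. Vim, the abundant filament protein vimentin, measured 6882 and 6679 scaled TPM at day 5 and 5000 and 5055 at day 32 and was not called (adjusted p = 0.266). Of secreted factors that act on synapses 8 rose and 6 fell of 21. 8 of the 21 synapse-acting secreted factors were called without MGS Day 5 replicate 1 and 9 were called without MGS Day 32 replicate 1. Of the 21 synapse-acting secreted factors, 8 were called higher and 2 lower without scaling and 7 higher and 8 lower after correction for length and GC content (median -0.08). Thbs1, the synaptogenic matrix protein thrombospondin 1, went from 22.3 and 23.2 to 124 and 126 scaled TPM (log2 fold change 2.41, SE 0.23, adjusted p = 4.11e-04). Gpc6, a glypican that recruits AMPA receptors, went from 19.5 and 19.6 to 58.5 and 59.3 scaled TPM. Chrdl1, a BMP antagonist that promotes synapse maturation, went from 4.32 and 4.46 to 16.4 and 15.1 scaled TPM.

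Genes of sterol and fatty acid synthesis rose. Of 28 sterol genes tested 16 were called higher and 1 lower, with a median of 0.56. 10 to 11 of the 28 sterol synthesis genes were called when any 1 of the 4 MGS libraries was left out. Hmgcs1, which makes the substrate of the rate-limiting step of cholesterol synthesis, went from 125 and 123 to 279 and 261 scaled TPM (log2 fold change 1.12, SE 0.12, adjusted p = 7.48e-04). Insig1, which holds the sterol sensor in the endoplasmic reticulum, went from 35.1 and 33.3 to 84.7 and 82.1 scaled TPM (log2 fold change 1.26, SE 0.10, adjusted p = 1.89e-04). Srebf1, a transcription factor of lipid synthesis, went from 106 and 106 to 210 and 234 scaled TPM. Of 20 fatty acid genes 9 rose and 3 fell, with a median of 0.48. Of the 20 fatty acid synthesis genes, 12 were called higher and 1 lower without scaling. Scd1, a stearoyl-CoA desaturase, went from 34 and 32.1 to 248 and 246 scaled TPM (log2 fold change 2.87, SE 0.14, adjusted p = 5.99e-05). Its more abundant relative Scd2 went from 530 and 553 to 1452 and 1460 scaled TPM (log2 fold change 1.43, SE 0.15, adjusted p = 5.67e-04). Fasn, fatty acid synthase, went from 58.9 and 60.9 to 125 and 147 scaled TPM. For all of these both day 32 libraries lay at about 2 times the day 5 libraries or above. A sterol regulatory element, searched as TCACNCCAC on either strand, was found in 1 of the 28 windows (3.60%) of the sterol list in RefSeq promoters (GRCm38.p6) and in 1.2% of all windows. The window that holds it is that of Hmgcs1 (chr13:119690101-119690400, plus strand), shown with the match in capitals.
Hmgcs1: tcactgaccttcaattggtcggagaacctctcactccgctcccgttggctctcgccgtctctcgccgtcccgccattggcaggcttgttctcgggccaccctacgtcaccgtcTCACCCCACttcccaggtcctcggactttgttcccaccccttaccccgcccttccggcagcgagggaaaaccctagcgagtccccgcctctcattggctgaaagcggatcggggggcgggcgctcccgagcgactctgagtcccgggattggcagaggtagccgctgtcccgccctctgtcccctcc

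Of 18 lipid carriers and efflux genes 9 fell and 4 rose. 6 of the 18 lipid carrier genes were called when any 1 of the 4 MGS libraries was left out. Of the 18 lipid carrier genes, 7 were called higher and 7 lower without scaling and 7 higher and 7 lower with quantile normalization (median 0.11). Fabp5, a fatty acid binding protein, measured 1092 and 855.004 scaled TPM at day 5 and 215 and 205 at day 32 (log2 fold change -2.19, SE 0.24, adjusted p = 6.66e-04). Apod, apolipoprotein D, measured 560 and 543 scaled TPM at day 5 and 240 and 218 at day 32 (log2 fold change -1.27, SE 0.16, adjusted p = 0.00125). Lpl, lipoprotein lipase, measured 37.8 and 38.6 scaled TPM at day 5 and 12.99 and 12.4 at day 32. Ribosomal protein genes fell: 56 of 62 were called lower, with a median of -1.15, and the 1 called higher was Rps27, described above. 8 to 16 of the 62 cytosolic ribosomal proteins were called when any 1 of the 4 MGS libraries was left out. Rpsa, the ribosomal protein that is also a laminin receptor, measured 1474 and 1322 scaled TPM at day 5 and 461 and 438 at day 32 (log2 fold change -1.63, SE 0.30, adjusted p = 0.00542). The summed level of the ribosomal list was 95300 to 100600 scaled TPM at day 5 and 42500 to 43740 at day 32. Many ribosomal protein genes have near-identical processed copies, so their shares of reads are uncertain. Nuclear genes of the respiratory chain fell in 28 of 57 cases with a median of -0.65. 49.1% of the 57 nuclear respiratory chain subunits were called, against 45.5% of all genes. 1 to 3 of the 57 nuclear respiratory chain subunits were called when any 1 of the 4 MGS libraries was left out, and 17 were called without CV Day 5 replicate 1, 18 were called without CV Day 5 replicate 2, 55 were called without CV Day 32 replicate 1 and 55 were called without CV Day 32 replicate 2. Of the 57 nuclear respiratory chain subunits, 1 was called higher and 6 lower without scaling and 1 higher and 7 lower with quantile normalization. Cyc1, cytochrome c1, measured 328 and 329 scaled TPM at day 5 and 175 and 184 at day 32, with its call lost without MGS Day 5 replicate 1 or MGS Day 5 replicate 2 or MGS Day 32 replicate 1 (adjusted p up to 0.0615). The transcripts of both lists are among the shortest, with medians of 1114 and 1232 bases. After correction for length and GC content the list medians were -0.82 and -0.36.

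Of 35 genes of glycolysis and the hypoxia response 4 rose and 9 fell. 37.1% of the 35 glycolysis and hypoxia genes were called, against 45.5% of all genes. 4 to 5 of the 35 glycolysis and hypoxia genes were called when any 1 of the 4 MGS libraries was left out. Of the 35 glycolysis and hypoxia genes, 11 were called higher and 3 lower without scaling (median 0.18), 16 higher and 7 lower with quantile normalization (median 0.18) and 6 higher and 10 lower after correction for length and GC content (median 0.01). Egln3, an oxygen-sensing prolyl hydroxylase, measured 207 and 203 scaled TPM at day 5 and 96.5 and 97.1 at day 32 (log2 fold change -1.07, SE 0.09, adjusted p = 2.38e-04). Adm, the peptide adrenomedullin, measured 38.02 and 38.3 scaled TPM at day 5 and 20.8 and 19.5 at day 32. Slc16a1, the lactate transporter MCT1, went from 146 and 148 to 256 and 248 scaled TPM (log2 fold change 0.77, SE 0.09, adjusted p = 7.56e-04). Lysosome genes fell in 18 of 39 cases and rose in 3. The share called was 53.8%, against 45.5% of all genes. 6 to 7 of the 39 lysosome genes were called when any 1 of the 4 MGS libraries was left out, and 32 were called without CV Day 32 replicate 1 and 32 were called without CV Day 32 replicate 2. Of the 39 lysosome genes, 4 were called higher and 7 lower without scaling (median 0.03) and 4 higher and 9 lower with quantile normalization. Ctsk, the protease cathepsin K, measured 157 and 142 scaled TPM at day 5 and 52.6 and 47.8 at day 32 (log2 fold change -1.55, SE 0.17, adjusted p = 7.08e-04). Gpnmb, a glycoprotein of stressed lysosomes, measured 194 and 195 scaled TPM at day 5 and 61.3 and 59.6 at day 32. Among targets of NRF2 and metallothioneins 2 rose and 8 fell of 27. 37% of the 27 NRF2 targets and metallothioneins were called, against 45.5% of all genes. 2 to 3 of the 27 NRF2 targets and metallothioneins were called when any 1 of the 4 MGS libraries was left out, and 19 were called without CV Day 32 replicate 1 and 19 were called without CV Day 32 replicate 2. Of the 27 NRF2 targets and metallothioneins, 6 were called higher and 5 lower without scaling (median 0.12), 6 higher and 6 lower with quantile normalization (median 0.04) and 6 higher and 8 lower after correction for length and GC content. Hmox1, heme oxygenase 1, measured 310 and 305 scaled TPM at day 5 and 88.8 and 90.7 at day 32 (log2 fold change -1.76, SE 0.11, adjusted p = 1.11e-04). Gpx3, a secreted glutathione peroxidase, measured 239 and 269 scaled TPM at day 5 and 42.3 and 37.9 at day 32 (log2 fold change -2.63, SE 0.14, adjusted p = 6.58e-05). The ferritin chains Fth1 and Ftl1 measured 7432 and 7353 against 2858 and 2790 and 4450 and 4372 against 1615 and 1561 scaled TPM. Their calls were lost without any 1 of the 4 MGS libraries (adjusted p up to 0.1) for Fth1 and without any 1 of the 4 MGS libraries (adjusted p up to 0.0752) for Ftl1.

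Heat shock chaperones were split, 7 up and 7 down of 20. 6 to 8 of the 20 heat shock chaperones were called when any 1 of the 4 MGS libraries was left out. Of the 20 heat shock chaperones, 8 were called higher and 4 lower without scaling (median 0.25) and 9 higher and 5 lower with quantile normalization (median 0.26). Hspa1a and Hspa1b, the near-identical inducible HSP70 genes, measured 84.9 and 68.3 against 24.8 and 28.3 and 92.9 and 73.7 against 23.2 and 25.9 scaled TPM, and because of their likeness the share of each is uncertain. Hspa4l, an exchange factor for HSP70, went from 26.4 and 25.96 to 92.8 and 89.96 scaled TPM (log2 fold change 1.77, SE 0.15, adjusted p = 2.59e-04). Immediate early genes fell in 12 of 25 cases and rose in 3. 6 to 9 of the 25 immediate early genes were called when any 1 of the 4 MGS libraries was left out. Of the 25 immediate early genes, 5 were called higher and 6 lower without scaling, 6 higher and 6 lower with quantile normalization and 4 higher and 9 lower after correction for length and GC content. Zfp36, which destabilises cytokine transcripts, measured 449 and 405 scaled TPM at day 5 and 172 and 174 at day 32 (log2 fold change -1.296, SE 0.10, adjusted p = 1.89e-04). Ier3, a stress-induced survival gene, measured 785 and 735 scaled TPM at day 5 and 247 and 257 at day 32. Genes of the integrated stress and unfolded protein responses were called higher in 4 and lower in 9 of 30 cases, with Dnajc3, a chaperone of the endoplasmic reticulum, at 66.7 and 68.4 against 130 and 123 scaled TPM and Cth, a cysteine-producing enzyme, at 1.45 and 1.73 against 3.67 and 4.09. 43.3% of the 30 stress response genes were called, against 45.5% of all genes. 6 of the 30 stress response genes were called without MGS Day 5 replicate 1, 7 were called without MGS Day 5 replicate 2 and 8 were called without MGS Day 32 replicate 1, and 23 were called without CV Day 32 replicate 1 and 23 were called without CV Day 32 replicate 2. Of the 30 stress response genes, 8 were called higher and 4 lower without scaling (median 0.12) and 6 higher and 8 lower with quantile normalization. Clock genes rose in 8 and fell in 2 of 19. The share called was 52.6%, against 45.5% of all genes. 6 of the 19 circadian clock genes were called without MGS Day 5 replicate 1, 6 were called without MGS Day 32 replicate 1 and 6 were called without MGS Day 32 replicate 2. Of the 19 circadian clock genes, 11 were called higher and 0 lower without scaling. Rora, an orphan nuclear receptor of the clock, went from 2.96 and 2.05 to 13.5 and 16.4 scaled TPM (log2 fold change 2.19, SE 0.27, adjusted p = 0.00109). Per2, a repressor of the clock, went from 2.98 and 3.59 to 8.59 and 9.52 scaled TPM, and Clock itself from 7.61 and 7.68 to 17.01 and 17.6 scaled TPM. The time of day of collection is not stated.

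**Figure D4:**
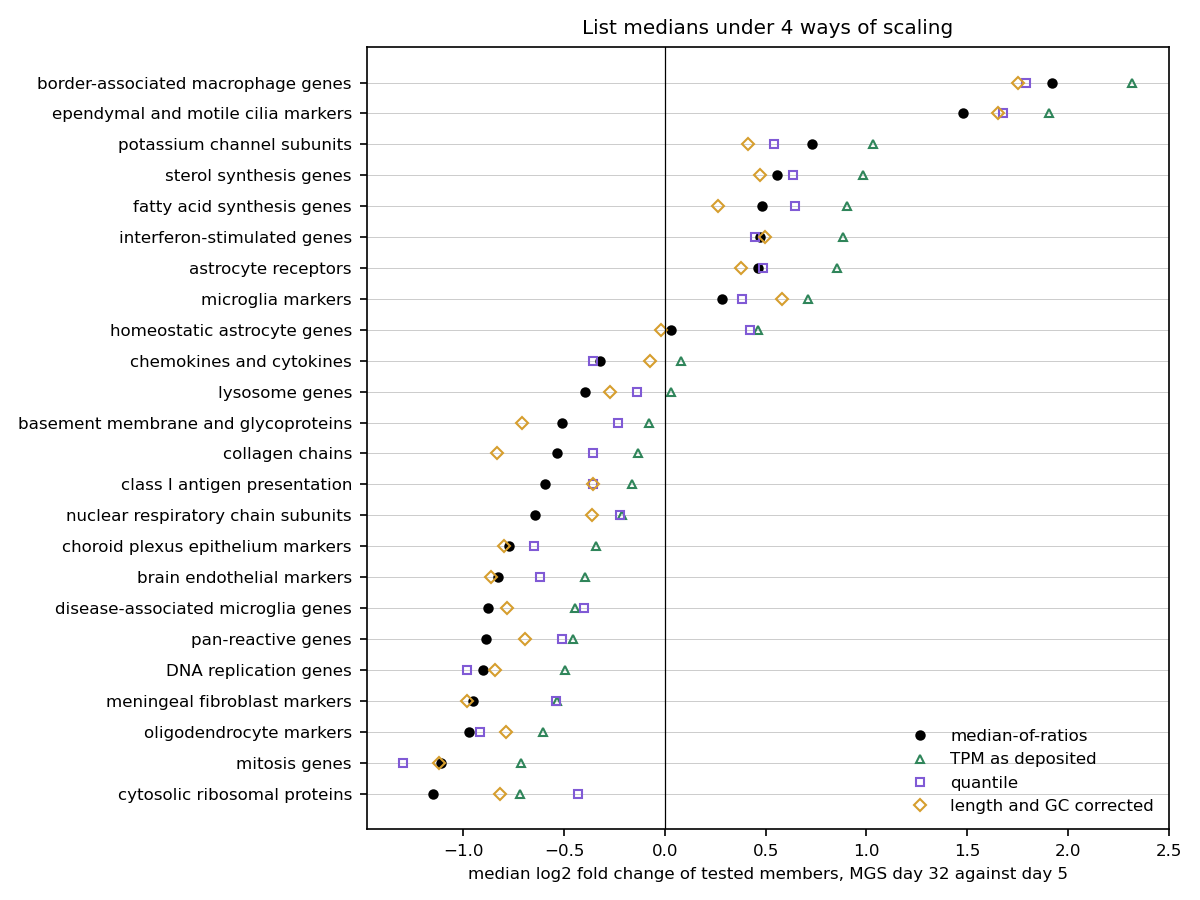
Median log2 fold change of the tested members of the same lists under 4 treatments of the TPM: median-of-ratios scaling (filled circles), TPM as deposited (triangles), quantile normalization (squares) and correction for transcript length and GC content (diamonds). Removing the scaling moves every list to the right, while the mitosis genes stay below 0 and the motile cilia genes above 0 under all 4.

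Matrix genes were called in both directions. Of 32 collagen chains 18 fell and 11 rose, with a median of -0.54. 19 of the 32 collagen chains were called without MGS Day 5 replicate 1 and 19 were called without MGS Day 32 replicate 2. Of the 32 collagen chains, 12 were called higher and 11 lower without scaling and 6 higher and 19 lower after correction for length and GC content. Col3a1, a fibrillar collagen of connective tissue, measured 691 and 679 scaled TPM at day 5 and 216 and 221 at day 32 (log2 fold change -1.65, SE 0.13, adjusted p = 2.07e-04). Col7a1, of anchoring fibrils, measured 26.4 and 26.02 scaled TPM at day 5 and 5.65 and 6.23 at day 32. Col9a3, a chain of a cartilage collagen, measured 214 and 219 scaled TPM at day 5 and 51.98 and 55.4 at day 32. Glycoproteins of the basement membrane and matrix fell in 15 of 30 and rose in 3. Of the 30 basement membrane and glycoprotein genes, 6 were called higher and 10 lower without scaling and 6 higher and 14 lower with quantile normalization. Eln, elastin, measured 145 and 150 scaled TPM at day 5 and 32.7 and 36.3 at day 32 (log2 fold change -2.07, SE 0.15, adjusted p = 1.58e-04). Spp1, osteopontin, measured 1205 and 1257 scaled TPM at day 5 and 212 and 192 at day 32 (log2 fold change -2.60, SE 0.12, adjusted p = 5.09e-05). Vtn, vitronectin, measured 131 and 130 scaled TPM at day 5 and 43.5 and 44.1 at day 32. Tenascin-R, described above, was the largest rise of that list. Proteoglycans of perineuronal nets rose more often than they fell (7 against 4 of 17). 6 to 7 of the 17 chondroitin and perineuronal net proteoglycans were called when any 1 of the 4 MGS libraries was left out. Of the 17 chondroitin and perineuronal net proteoglycans, 9 were called higher and 2 lower without scaling and 5 higher and 5 lower after correction for length and GC content (median -0.03). Their link proteins Hapln1 and Hapln4 went from 2.30 and 2.55 to 8.25 and 7.95 scaled TPM and from 0.554 and 0.586 to 2.60 and 2.74 scaled TPM, beside the rise of Acan given above. Of the small leucine-rich proteoglycans 6 rose and 2 fell of 12. Of the 12 small leucine-rich proteoglycans, 7 were called higher and 1 lower without scaling and 7 higher and 1 lower with quantile normalization. Fmod, fibromodulin, went from 53.7 and 52.1 to 201.1 and 197 scaled TPM (log2 fold change 1.89, SE 0.09, adjusted p = 5.27e-05). Prelp went from 56.8 and 60.7 to 159 and 169 scaled TPM. Aspn, asporin, went from 1.23 and 0.936 to 7.65 and 7.56 scaled TPM.

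Integrins and focal adhesion genes were called up in 11 and down in 7 of 27. Of the 27 integrin and adhesion genes, 14 were called higher and 4 lower without scaling, 13 higher and 5 lower with quantile normalization and 9 higher and 10 lower after correction for length and GC content (median -0.10). Itgb8, the integrin subunit that activates TGF-beta, went from 6.43 and 9.01 to 48.7 and 49.9 scaled TPM (log2 fold change 2.54, SE 0.37, adjusted p = 0.00208). Zyx, the focal adhesion protein zyxin, measured 211 and 195 scaled TPM at day 5 and 81.8 and 85.6 at day 32 (log2 fold change -1.27, SE 0.11, adjusted p = 3.23e-04). Itga7, a laminin-binding subunit, measured 67.3 and 61.3 scaled TPM at day 5 and 27.8 and 29.3 at day 32. Smooth muscle and actin genes rose in 7 and fell in 12 of 30. 8 to 10 of the 30 smooth muscle and actin genes were called when any 1 of the 4 MGS libraries was left out. Of the 30 smooth muscle and actin genes, 13 were called higher and 7 lower without scaling (median 0.31) and 11 higher and 8 lower with quantile normalization (median 0.18). Actg2, an actin of visceral smooth muscle, measured 42.5 and 37.8 scaled TPM at day 5 and 7.34 and 9.31 at day 32 (log2 fold change -2.15, SE 0.19, adjusted p = 3.11e-04), whereas Cnn1, calponin, went from 6.39 and 6.56 to 18.3 and 18.6 scaled TPM. Lmod1, leiomodin, went from 2.12 and 2.38 to 7.75 and 7.39 scaled TPM. Acta2, the smooth muscle actin of contractile cells, measured 273 and 250 scaled TPM at day 5 and 247 and 240 at day 32 and was not called (adjusted p = 0.668). Without scaling and with quantile normalization it was called higher (log2 fold changes 0.33 and 0.31, adjusted p = 0.0341 and 0.0422). The list of YAP and TAZ, the mechanosensitive co-activators, holds their own genes Yap1 and Wwtr1, the genes Tead1, Tead2, Tead3 and Tead4, and targets. Its members rose in 11 and fell in 8 of 31 cases, with Crim1, a transmembrane BMP-binding protein, going from 16.5 and 15.96 to 53.9 and 56.5 scaled TPM. 9 of the 31 genes of the YAP and TAZ list were called when any 1 of the 4 MGS libraries was left out. Of the 31 genes of the YAP and TAZ list, 14 were called higher and 4 lower without scaling and 8 higher and 9 lower after correction for length and GC content. Of the channels opened by stretch or swelling 4 rose and 5 fell of 14, with Trpv2 at 14.6 and 14.9 against 6.51 and 6.78 scaled TPM. 5 of the 14 mechanosensitive channels were called when any 1 of the 4 MGS libraries was left out. Of the 14 mechanosensitive channels, 5 were called higher and 3 lower without scaling (median 0.26), 5 higher and 6 lower with quantile normalization (median 0.03) and 2 higher and 6 lower after correction for length and GC content. Matrix proteases and inhibitors fell in 12 and rose in 6 of 28. 8 of the 28 matrix proteases and inhibitors were called when any 1 of the 4 MGS libraries was left out. Of the 28 matrix proteases and inhibitors, 9 were called higher and 6 lower without scaling (median 0.23) and 3 higher and 15 lower after correction for length and GC content. Mmp9, gelatinase B, measured 5.43 and 4.59 against 0.770 and 0.789 scaled TPM, and Adamts15, a proteoglycan-cleaving protease, 42.1 and 41.7 against 16.3 and 17.1.

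Growth factor and morphogen pathways were mixed. Of 14 hedgehog pathway genes 6 rose and 0 fell. 42.9% of the 14 sonic hedgehog pathway genes were called, against 45.5% of all genes. 10 of the 14 sonic hedgehog pathway genes were called without CV Day 32 replicate 2. Of the 14 sonic hedgehog pathway genes, 6 were called higher and 4 lower with quantile normalization and 6 higher and 1 lower after correction for length and GC content. With a replicate block 6 were higher and 1 lower, and with the MGS libraries fitted alone 7 were higher and 4 lower. The ligand Shh went from 0.346 and 0.326 to 2.22 and 2.39 scaled TPM (log2 fold change 1.31, SE 0.13, adjusted p = 4.28e-04), the co-receptor Cdon from 15.4 and 16.4 to 32.4 and 32.98 scaled TPM and the transcription factor Gli3 from 7.72 and 7.69 to 15.9 and 15.9 scaled TPM. The receptor Ptch1, which is also a target of the pathway, went from 7.59 and 8.57 to 34.6 and 37.6 scaled TPM, with its call lost without MGS Day 5 replicate 1 or MGS Day 32 replicate 1 or MGS Day 32 replicate 2 (adjusted p up to 0.063). Of 41 Wnt genes 11 rose and 15 fell. 15 to 16 of the 41 Wnt pathway genes were called when any 1 of the 4 MGS libraries was left out. Of the 41 Wnt pathway genes, 15 were called higher and 8 lower without scaling (median 0.09). The ligand Wnt7b measured 16.8 and 18.1 scaled TPM at day 5 and 2.56 and 2.80 at day 32 (log2 fold change -2.32, SE 0.15, adjusted p = 1.18e-04), the receptor Fzd9 23.3 and 25.6 scaled TPM at day 5 and 7.09 and 7.73 at day 32, the transcription factor Lef1 6.39 and 7.19 against 1.40 and 1.73, and the secreted inhibitor Wif1 went from 2.17 and 1.81 to 13.3 and 12.2 scaled TPM (log2 fold change 2.20, SE 0.18, adjusted p = 2.49e-04). These 4 were named as the largest called changes of the list, and its other ligands, receptors, effectors and inhibitors are not described here. Of 33 genes of the BMP and TGF-beta pathway 14 rose and 8 fell. 12 to 14 of the 33 BMP and TGF-beta pathway genes were called when any 1 of the 4 MGS libraries was left out. Of the 33 BMP and TGF-beta pathway genes, 17 were called higher and 3 lower without scaling. The ligand Bmp5 measured 19.4 and 18.1 scaled TPM at day 5 and 4.31 and 4.49 at day 32, the receptor Bmpr2 went from 4.81 and 4.72 to 30.2 and 33.97 scaled TPM (log2 fold change 2.52, SE 0.35, adjusted p = 0.00186) and the secreted antagonist Nog, noggin, from 26.8 and 24.96 to 75.6 and 84.7 scaled TPM (log2 fold change 1.59, SE 0.15, adjusted p = 3.74e-04). Of 21 Notch genes 6 rose and 8 fell. The targets Hes5, Heyl and Nrarp, named for the size of their change, were among those that fell. Heyl measured 3.24 and 3.27 against 0.585 and 0.742 scaled TPM and Nrarp 13.6 and 14.4 against 5.47 and 5.44. The other targets on the list are not described here. Of the 21 Notch pathway genes, 7 were called higher and 6 lower without scaling (median 0.29).

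Growth and neurotrophic factors were called up in 10 and down in 8 of 30. Of the 30 growth and neurotrophic factors, 12 were called higher and 5 lower without scaling. Mdk, the heparin-binding factor midkine, measured 655 and 611 scaled TPM at day 5 and 205 and 201.3 at day 32 (log2 fold change -1.63, SE 0.22, adjusted p = 0.00171). Pdgfd, a platelet-derived growth factor, went from 5.73 and 6.52 to 22.2 and 22.6 scaled TPM. Tgfa, a ligand of the epidermal growth factor receptor, went from 5.25 and 5.84 to 14.5 and 13.02 scaled TPM. Of the insulin-like growth factor axis 3 rose and 8 fell of 16. 4 to 5 of the 16 insulin-like growth factor axis genes were called when any 1 of the 4 MGS libraries was left out. Of the 16 insulin-like growth factor axis genes, 4 were called higher and 4 lower without scaling and 2 higher and 11 lower after correction for length and GC content. The imprinted ligand Igf2 measured 1824 and 1914 scaled TPM at day 5 and 705 and 697 at day 32 (log2 fold change -1.41, SE 0.11, adjusted p = 1.89e-04) and the binding protein Igfbp4 670 and 665 scaled TPM at day 5 and 184 and 188 at day 32 (log2 fold change -1.84, SE 0.17, adjusted p = 3.29e-04). The neighbouring imprinted noncoding RNA H19 measured 4680 and 4744 scaled TPM at day 5 and 900 and 922 at day 32 (log2 fold change -2.37, SE 0.18, adjusted p = 1.76e-04). Of 21 imprinted genes 2 rose and 8 fell. 47.6% of the 21 imprinted genes were called, against 45.5% of all genes. 16 of the 21 imprinted genes were called without CV Day 32 replicate 1 and 16 were called without CV Day 32 replicate 2. Of the 21 imprinted genes, 5 were called higher and 5 lower without scaling (median 0.16) and 6 higher and 7 lower with quantile normalization. Axon guidance genes were called up in 17 and down in 11 of 43, with Plxna4, a semaphorin co-receptor, going from 2.21 and 2.68 to 10.2 and 9.87 scaled TPM. 11 to 13 of the 43 axon guidance genes were called when any 1 of the 4 MGS libraries was left out. Of the 43 axon guidance genes, 19 were called higher and 2 lower without scaling and 13 higher and 14 lower after correction for length and GC content (median -0.16). Sema3d, a secreted semaphorin, went from 10.8 and 11.7 to 31.9 and 30.7 scaled TPM. Retinoid genes fell in 11 and rose in 4 of 19. Of the 19 retinoid genes, 6 were called higher and 7 lower without scaling and 6 higher and 10 lower after correction for length and GC content. Stra6, the receptor for retinol-binding protein, measured 212 and 223 scaled TPM at day 5 and 40.9 and 44.98 at day 32 (log2 fold change -2.32, SE 0.15, adjusted p = 1.18e-04). The retinoic acid synthesising enzymes went apart: Aldh1a2 measured 166 and 164 scaled TPM at day 5 and 59.7 and 58.6 at day 32. Aldh1a1 measured 44.7 and 40.4 scaled TPM at day 5 and 128 and 121 at day 32.

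Markers of several other cell types moved between the days. Motile cilia genes rose: 20 of 21 ependymal and cilia markers were called higher and 0 lower, with a median of 1.48, and the summed level was 813 to 844 scaled TPM at day 5 and 1813 to 1860 at day 32. Rsph4a, a radial spoke protein of motile cilia, went from 10.4 and 11.3 to 65.2 and 64.9 scaled TPM (log2 fold change 2.48, SE 0.22, adjusted p = 3.01e-04). The axonemal dynein heavy chains Dnah5 and Dnah11, listed in the files as Dnahc5 and Dnahc11, went from 1.31 and 1.59 to 13.96 and 14.2 scaled TPM and from 1.59 and 1.69 to 13.2 and 13.6 scaled TPM. Cfap44, a cilia protein listed as Wdr52, went from 8.67 and 9.42 to 63.9 and 63.9 scaled TPM (log2 fold change 2.69, SE 0.16, adjusted p = 1.06e-04). In all 4 genes both day 32 libraries were over 5 times both day 5 libraries. The X-box, the motif of RFX factors, searched as GTNNCC and GNNAC with any 3 bases between them on either strand, was found in 7 of the 23 windows (30.4%) of this list in RefSeq promoters (GRCm38.p6), against 4.6% of all windows. The window of Cfap44 (chr16:44394549-44394848, plus strand) is shown with the match in capitals.
Cfap44: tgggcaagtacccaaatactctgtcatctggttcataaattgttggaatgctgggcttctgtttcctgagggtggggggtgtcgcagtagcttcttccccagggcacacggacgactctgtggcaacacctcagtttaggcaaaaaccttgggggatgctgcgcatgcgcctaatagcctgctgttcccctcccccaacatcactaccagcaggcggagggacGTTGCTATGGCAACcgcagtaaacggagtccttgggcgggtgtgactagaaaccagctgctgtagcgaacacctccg

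Endothelial genes fell in 11 and rose in 3 of 17. Of the 17 brain endothelial markers, 4 were called higher and 8 lower without scaling. Cldn5, the tight junction claudin of brain endothelium, measured 25.7 and 25.1 scaled TPM at day 5 and 0.0439 and 0.0885 at day 32 (log2 fold change -4.63, SE 0.10, adjusted p = 8.35e-06). Pecam1, the endothelial adhesion protein CD31, measured 6.61 and 6.04 scaled TPM at day 5 and 0.0566 and 0.0571 at day 32. Tie1, an endothelial receptor kinase, measured 4.76 and 4.01 scaled TPM at day 5 and 0.0475 and 0 at day 32. These 3 genes, named for the size of their change, were at or near 0 in both day 32 libraries. The summed level of the whole list was 456 to 462 scaled TPM at day 5 and 377 to 391 at day 32. The 3 members that rose and the other members of the list are not described here. Markers of the choroid plexus fell in 9 of 13 and rose in 0. Ttr, transthyretin, measured 13446 and 18101 scaled TPM at day 5 and 1502 and 1478 at day 32 (log2 fold change -3.39, SE 0.25, adjusted p = 1.76e-04). Aqp1, a water channel of that epithelium, measured 124 and 121 scaled TPM at day 5 and 43.8 and 46.2 at day 32. Oligodendrocyte markers fell in 12 of 16 and rose in 1. Of the 16 oligodendrocyte markers, 2 were called higher and 8 lower without scaling. Mbp, myelin basic protein, measured 303 and 309 scaled TPM at day 5 and 67.2 and 60.4 at day 32 (log2 fold change -2.25, SE 0.09, adjusted p = 4.01e-05). Mag, a myelin glycoprotein, measured 26.8 and 31.01 scaled TPM at day 5 and 5.29 and 5.18 at day 32. The 1 that rose was Mal (4.36 and 4.89 against 19.9 and 19.01 scaled TPM). Precursor markers of that lineage did not fall with it, with 5 higher and 1 lower of 11: Lhfpl3 went from 9.41 and 10.3 to 38.3 and 39.9 scaled TPM. The share of precursor markers called was 54.5%, against 45.5% of all genes. 2 of the 11 oligodendrocyte precursor markers were called when any 1 of the 4 MGS libraries was left out. Of the 11 oligodendrocyte precursor markers, 8 were called higher and 0 lower without scaling. Sox10 went from 18.9 and 19.5 to 24.4 and 25.9 scaled TPM and lost its call without any 1 of the 4 MGS libraries (adjusted p up to 0.157).

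Meningeal fibroblast markers fell in 15 of 21 and rose in 2, with a median of -0.95, and their summed level was 16710 to 18550 scaled TPM at day 5 and 13080 to 13170 at day 32. Of the 21 meningeal fibroblast markers, 4 were called higher and 11 lower without scaling and 4 higher and 13 lower with quantile normalization. Col1a1, a fibrillar collagen, measured 1128 and 1124 scaled TPM at day 5 and 383 and 412 at day 32 (log2 fold change -1.499, SE 0.15, adjusted p = 5.42e-04). Slc6a13, a GABA transporter of meninges, measured 137 and 146 scaled TPM at day 5 and 49.01 and 52.1 at day 32. These fell beside the collagens, the retinoid enzyme Aldh1a2 and Igf2, which belong to this list too, and the part of fibroblasts in those falls was not tested. Mural cell markers fell in 7 and rose in 1 of 10, with Rgs5, a pericyte regulator of G-protein signalling, at 2.51 and 3.003 against 0.513 and 0.824 scaled TPM. Of the 10 mural cell markers, 2 were called higher and 4 lower without scaling. Neuron markers fell in 13 and rose in 1 of 18. Of the 18 neuron markers, 2 were called higher and 7 lower without scaling. The neurofilament genes Nefl and Nefm measured 4.27 and 3.72 against 0.395 and 0.316 and 4.59 and 4.39 against 1.06 and 1.23 scaled TPM. The microtubule protein gene Map2, which glial cells also transcribe, went from 31.8 and 35.6 to 74.7 and 72.1 scaled TPM. Of 12 Schwann and olfactory ensheathing markers 3 rose and 3 fell. 3 of the 12 Schwann and olfactory ensheathing markers were called when any 1 of the 4 MGS libraries was left out. Of the 12 Schwann and olfactory ensheathing markers, 4 were called higher and 1 lower without scaling (median 0.29) and 5 higher and 3 lower after correction for length and GC content (median 0.15). Xist, the RNA of the inactive X chromosome, went from 7.87 and 8.66 to 89.7 and 86.1 scaled TPM (log2 fold change 3.26, SE 0.20, adjusted p = 1.11e-04). Of 4 Y-linked genes, chosen after their values were seen, Eif2s3y measured 41.9 and 41.3 scaled TPM at day 5 and 19.3 and 17.8 at day 32 (log2 fold change -1.13, SE 0.13, adjusted p = 8.79e-04), while Ddx3y (15.5 and 16.5 against 12.1 and 12.9), Kdm5d (12.1 and 11.6 against 8.58 and 8.19) and Uty (4.42 and 4.77 against 3.87 and 3.73) were not called. On scaled TPM all 4 were lower in both day 32 libraries, as were 6766 of the 14866 genes tested. Scaling lowers every log2 fold change, so this direction depends on it for genes with small changes. The mix of sexes in the cultures was not tested.

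The change from day 5 to day 32 differed between MGS and CV for most genes. A test of the difference itself (interaction) called 8966 genes (60.3%), 4267 more positive (28.7%) and 4699 more negative (31.6%) in MGS. For 5326 of the 14866 genes (35.8%) the difference was called and at least 2-fold. On TPM without scaling it called 7395 and 1831. For the change with day in CV, tested in the same model, 8054 genes were called (54.2%). Its estimate of spread is shared with MGS, whose replicates were closer, as given above. Of the genes called in MGS, 5081 were also called in the interaction. Some genes moved in opposite directions: 1309 were called higher in MGS and lower in CV, and 1034 the reverse. A further 817 rose in both cultures and 770 fell in both. Without MGS Day 5 replicate 1 or replicate 2, or MGS Day 32 replicate 1 or replicate 2, the interaction called 6429 to 6685 genes, and without CV Day 32 replicate 2 it called 10885.

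Lcn2 fell in MGS but was low in CV at both days, with 0.680 and 0 at day 5 and 12.5 and 10.9 at day 32 scaled TPM (interaction -10.72, SE 0.33, adjusted p = 2.87e-06). Spp1, which fell in MGS, measured 47.9 and 44.8 at day 5 and 5593 and 5278 at day 32 in CV (interaction -9.45). Tmem119 measured 0.726 and 0.299 at day 5 and 102 and 86.8 at day 32 in CV (interaction -7.79). Trem2, a lipid receptor of microglia, measured 45.4 and 43.95 scaled TPM at day 5 and 20.9 and 23.8 at day 32 in MGS, a fall whose call was lost without any 1 of the 4 MGS libraries (adjusted p up to 0.131), and 3.26 and 1.81 at day 5 and 601 and 351 at day 32 in CV (interaction -8.03). Wfdc17, a secreted protein of activated macrophages, measured 15.9 and 15.6 scaled TPM at day 5 and 6.41 and 6.54 at day 32 in MGS, with its call lost without any 1 of the 4 MGS libraries (adjusted p up to 0.127), and 1.13 and 0 at day 5 and 197 and 136 at day 32 in CV (interaction -7.98). The CV libraries of day 32 were thus far above the MGS libraries of day 32 for the last 4. The microglia list as a whole had a median change of 7.08 in CV, with 23 of 24 called higher, against 0.28 in MGS. The part of microglia in the differences of the other immune genes was not tested. Pan-reactive genes had a median of 1.303 in CV against -0.89 in MGS. In the interaction 9 of 13 were called more negative and 2 more positive, against 31.6% and 28.7% of all genes.

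In the other direction, Myoc measured 8.88 and 6.71 at day 5 and 1.15 and 0.876 at day 32 in CV (interaction 6.56, SE 0.20, adjusted p = 2.87e-06). Pcp4 measured 83.2 and 88.1 at day 5 and 3.43 and 2.48 at day 32 in CV (interaction 7.93), and Itgb8 22.3 and 35.7 at day 5 and 1.45 and 4.10 at day 32 (interaction 5.59). Xylt1, the enzyme that starts glycosaminoglycan chains on proteoglycans, went from 2.68 and 2.82 to 13.1 and 15.3 scaled TPM in MGS and measured 23.2 and 27.5 at day 5 and 0.914 and 1.60 at day 32 in CV (interaction 5.58). Each of these rose in MGS and fell in CV. Sterol genes rose in MGS with a median of 0.56 and fell in CV with -1.04, and 21 of 28 were called in the interaction as more positive in MGS. Mitosis genes fell in both cultures, with medians of -1.11 and -1.498. By the test of the difference 16 of 39 fell less in MGS and 4 fell more. Over all genes tested that test called 28.7% more positive and 31.6% more negative in MGS. Interferon-stimulated genes rose in both, with medians of 0.47 and 2.64, and 30 of 35 were called in the interaction as more negative in MGS. Ribosomal protein genes had medians of -1.15 in MGS and 0.74 in CV, with 59 of 62 more negative in MGS. Potassium channel subunits had medians of 0.73 and -0.52, with 19 of 21 more positive in MGS. These lists differ in transcript length, and the length trend ran in opposite directions in the cultures, as given above.

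**Figure D5:**
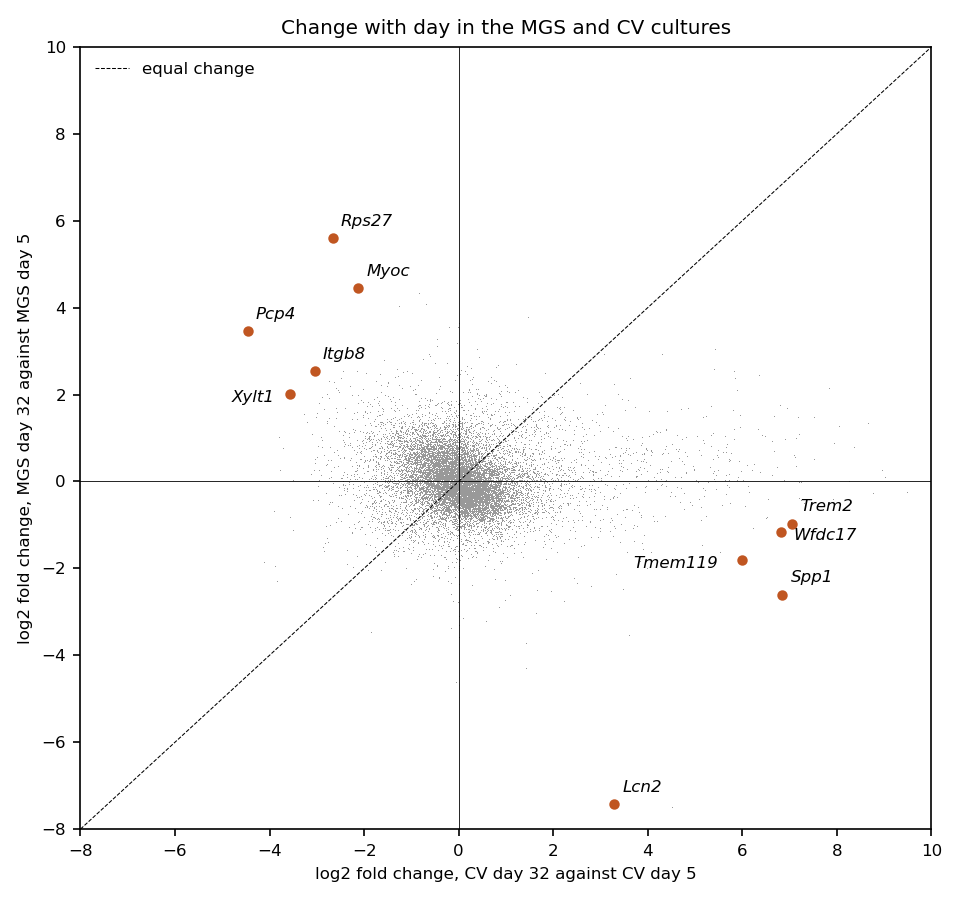
Log2 fold change from day 5 to day 32 in MGS (vertical axis) against that in CV (horizontal axis) for the 14866 genes tested (grey dots), with the genes of largest interaction named. The dashed line marks equal change. Lcn2, Spp1, Tmem119, Trem2 and Wfdc17 lie below it, and Myoc, Pcp4, Itgb8, Xylt1 and Rps27 above it.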

How the data were processed

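RNA of mouse astrocytes was sequenced from 8 libraries, 2 in each of 4 groups taken from the titles (MGS and CV, day 5 and day 32). The labels' protocols name TRIzol and a directional library kit. The submitters' processing notes list HISAT2 2.1.0, StringTie 1.3.4d, bcl2fastq and the builds mm10 and hg38. Roles, annotation release and the use of strand are not given in the sources used here. The authors deposited TPM for 23401 genes in a table of all libraries, and TPM, FPKM and coverage per gene row in 1 file per library, per the file headers. FPKM served in an alternative. Coverage divided by FPKM gave the aligned bases of each library. Read counts could not be recovered, so error is taken from the replicates alone. In the files 188 gene IDs had several rows, of which the table holds the last (checked within 0.0001 TPM), and 0 rows were mitochondrial. Of 13736 tested genes matched by symbol and chromosome to RefSeq GRCm38.p6, 13732 overlapped the gene of that name.

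The 14866 genes that reached 1 TPM in 2 or more of the 8 libraries were scaled by median-of-ratios size factors from the genes above 0 in all libraries, and taken as log2(TPM + 1). A single limma model (version 3.58.1, R 4.3.3) held the 4 group means (4 residual degrees of freedom, 2.98 prior degrees of freedom, variance trend) and yielded two-sided p-values, adjusted by Benjamini-Hochberg. For 1 gene, permuting 2 libraries against 2 exactly cannot give a p under 0.333. Tables were handled in Python 3.11.15 with pandas 2.3.3.

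The lists (64, with 1371 genes tested) and the comparison were chosen with earlier results of these data known. Named were the 15 largest called rises and 15 largest falls (at least 5 scaled TPM, no overlap, no model names), the 4 largest called changes within a list, the 5 largest interactions each way, and 20 set genes, 268 in all. Of the symbols listed, 13 were matched through RefSeq synonyms. Alternatives were no scaling, quantile normalization, a pseudocount of 0.1, no filter or 5 TPM, FPKM, rows summed, the MGS libraries alone, no variance trend, a replicate block, each library left out, and, added after seeing the data, a length and GC correction and a crossed block. Lengths and GC content came from GENCODE vM21, with values for 14764 genes.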

Additional observations from a re-analysis of the deposited data

Results flagged for a closer look

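The change from day 5 to day 32 differed between MGS and CV by the test of the interaction in 8966 genes, and the genes below had the largest differences each way among those called in both tests. Both cultures share 1 estimate of spread. Lcn2 had an interaction of -10.72 on the log2 scale and Spp1 of -9.45. Trem2 had -8.03, Wfdc17 -7.98 and Tmem119 -7.79, and all 5 of these genes fell in MGS and rose in CV by their own tests. Leaving out any 1 MGS library lost the MGS call of Trem2, Wfdc17 and Rps27. In the other direction Xylt1 had 5.58, Itgb8 5.59, Myoc 6.56 and Pcp4 7.93. Each of these rose in MGS and fell in CV. Rps27 had 8.27 and was not called in CV (adjusted p = 0.254). Its CV Day 5 libraries measured 7.93 and 1017 scaled TPM, and Gm9846, annotated over the same span and strand, measured 1086 and 9.42 there. The log2 sum of both levels changed by -1.14 in MGS and 1.2 in CV.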

How the results depend on the processing

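Of the 260 named genes called in the MGS comparison, C3 and Slc1a2 changed direction under an alternative; 14 were not tested at the 5 TPM filter and 2 not with FPKM. Without scaling 5200 genes were called higher and 1122 lower, and the interaction called 7395 more positive and 1831 more negative. With the MGS libraries fitted alone 11037 were called, 5524 higher and 5513 lower. Leaving out 1 library in turn gave 2795 to 9248 calls, 1643 to 4486 higher and 1152 to 4855 lower. The highest counts came without CV Day 32 replicate 2 (9248) or 1 (9222), and the lowest, 2795 to 3166, without an MGS library, where the lone library of a group is assumed to vary like the other groups. Between 43 and 48 of the 260 named calls were lost without 1 MGS library. Depth is known only as aligned bases, so the counting error of low TPM could not be given.

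Without scaling, the log2 fold changes of Acta2 (0.3281), C3 (0.0473), Gja1 (0.0814), Gjb6 (0.3217), Lyz2 (0.1368) and Vim (0.002) turned positive, that of Acta2 with a call (adjusted p = 0.0341). With quantile normalization those of Acta2 (0.3124), C3 (0.0287), Gja1 (0.5365), Gjb6 (0.1588), Lyz2 (0.3156) and Vim (0.3684) did too (Acta2 and Gja1 called higher, adjusted p = 0.0422 and 0.0231). Apoe was 0.0 there, as quantile normalization gives the most abundant gene of each library the same value. After correction for length and GC content, with or without the replicate block, Acta2 (0.1088), Gjb6 (0.0954), Slc1a2 (-0.2631) and Slc1a3 (-0.1574) turned. Slc1a3 lay between -0.0053 and 0.0842 when 1 library was left out. Of these genes Apoe, C3 and Slc1a2 were called as reported. Apart from Apoe, the cause was not tested.

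The labels give the libraries of the 4 groups the replicate numbers 1 and 2, with nothing to say that a number is a shared culture, animal or day. The deviations of the replicates correlated with r = -0.134 between MGS Day 5 and MGS Day 32, and -0.059 to 0.444 between the other pairs of groups, so the numbers are not used to pair samples. A replicate block gave 7386 calls in MGS (3647 higher, 3739 lower) and 9380 in the interaction, and lost none of the 260 named calls. With the MGS Day 32 numbers crossed, a fit chosen after seeing the data, it gave 7579 and 9603.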
